A study of Mus musculus with 9 samples.

Results

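p53, encoded by Trp53 in the mouse, was followed together with 9 genes that it regulates or that regulate it: its inhibitors Mdm2 and Mdm4, the arrest gene Cdkn1a, and the targets Ccng1, Zmat3, Trp53inp1, Phlda3, Tnfrsf10b and Dcxr. The 10 genes were chosen by symbol. All 10 were among the 24060 genes of the count table and among the 15153 with enough counts to be tested. RNA came from primary immature neurons of day 14 mouse embryos, with no strain, sex or genotype given, kept 2 days in culture with serum. Cultures were untreated, or received 1 mM or 10 mM 2-deoxyglucose (2-DG), a glucose analogue that blocks glycolysis and disturbs protein glycosylation, for 6 h. Each group had 3 libraries, called independent replicates without a statement of which cultures or litters they came from, so p-values measure only the spread between these libraries. The libraries held between 40105082 and 48237104 counts each.

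p53 is a transcription factor that is kept scarce in unstressed cells because the MDM2 protein marks it for degradation, while MDM4 masks its activation domain. DNA damage, nucleolar stress and nutrient stress can free p53 from both inhibitors, mostly at the level of the protein. It then induces arrest genes such as Cdkn1a, death genes, and Mdm2 itself, which closes a negative feedback loop. In neurons p53 is best known for its part in death after injury and in developmental cell loss. Only RNA was measured here, so p53 protein and its modifications were not seen.

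The labelled cell type was checked first. The neuronal markers Tubb3 and Dcx, both cytoskeletal genes of young neurons, stood at 2974 ± 227 and 610 ± 25.4 CPM in controls (SD, n = 3), where CPM is a count relative to its library total, corrected by trimmed means. Summed over 10 neuronal markers the level was 6850 to 7154 CPM in controls, 6568 to 6782 at 1 mM and 5621 to 5962 at 10 mM, with 0 and 4 of the markers lower. Markers of other cells were present, but not all of them. Sox10 of the oligodendrocyte lineage had 0 to 7 counts a library and the endothelial Cldn5 had 0 to 4. The endothelial Pecam1 was at 0.771 CPM in controls, where the collagen genes Col1a1, Col1a2 and Col3a1 were at 15.0, 18.3 and 36.1 CPM. Summed over 10 radial glia and progenitor markers, the level was 1500 to 1933 CPM in controls, 1287 to 1585 at 1 mM and 1201 to 1466 at 10 mM, with 2 markers past the test as lower at 1 mM and 4 at 10 mM. Over 12 microglial markers the sums were 62.2 to 93.1, 29.2 to 37.1 and 31.4 to 45.9 CPM, with 7 and 10 markers lower. Over 6 astrocyte markers the sums were 127 to 164, 117 to 145 and 108 to 133 CPM, with 0 and 1 of 5 tested lower, and S100b among them had at most 4 counts in any library and none at 10 mM. Over 6 markers of the oligodendrocyte lineage they were 60.3 to 66.4, 50.7 to 57.0 and 41.6 to 47.6 CPM without overlap, with 1 and 2 of 5 tested lower. Over 8 endothelial and fibroblast markers the sums were 56.1 to 119, 61.1 to 126 and 61.2 to 113 CPM. The library numbered 3 was the highest of each group. Of the 6 tested, 0 were called at 1 mM, and 1 was higher and 1 lower at 10 mM. In bulk RNA, fewer cells of a type and less RNA per cell cannot be told apart, and the part of these cells in the results below was not tested.

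All 10 are protein-coding genes of GRCm38 in the GENCODE annotation. The annotation places Trp53 at chr11:69580359-69591873 (plus strand), Mdm2 at chr10:117688875-117710758 (minus) and Mdm4 at chr1:132959484-133030561 (minus). Of the targets, it places Cdkn1a at chr17:29090976-29100727 (plus), Ccng1 at chr11:40748552-40755311 (minus), Zmat3 at chr3:32334792-32366014 (minus), Trp53inp1 at chr4:11156431-11174379 (plus), Phlda3 at chr1:135766119-135769136 (plus), Tnfrsf10b at chr14:69767472-69784411 (plus) and Dcxr at chr11:120725399-120727281 (minus).

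Promoter sequence is shown for the members that hold the decamer half-site of the p53 motif just before their start, because p53 acts on its targets through pairs of such half-sites. The 250 bases before each start were searched on both strands in RefSeq promoters of GRCm38.p6, which hold 7 of the 10 members (not Zmat3, Trp53inp1 or Tnfrsf10b). Capitals mark each half-site, and each window is written in the direction of its gene, at chr11:69580259-69580328 (plus strand) for Trp53, chr10:117710789-117710958 (minus) for Mdm2, chr17:29090779-29090948 (plus) for Cdkn1a and chr11:40755317-40755486 (minus) for Ccng1. None of the windows overlaps an annotated exon.
Trp53: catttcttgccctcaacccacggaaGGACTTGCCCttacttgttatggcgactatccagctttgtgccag
Mdm2: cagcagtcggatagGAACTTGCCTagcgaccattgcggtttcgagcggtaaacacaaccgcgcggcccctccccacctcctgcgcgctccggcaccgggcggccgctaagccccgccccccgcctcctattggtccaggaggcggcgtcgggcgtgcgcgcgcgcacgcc
Cdkn1a: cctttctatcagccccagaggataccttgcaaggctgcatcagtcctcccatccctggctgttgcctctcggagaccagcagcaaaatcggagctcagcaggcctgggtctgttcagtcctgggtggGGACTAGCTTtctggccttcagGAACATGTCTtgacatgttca
Ccng1: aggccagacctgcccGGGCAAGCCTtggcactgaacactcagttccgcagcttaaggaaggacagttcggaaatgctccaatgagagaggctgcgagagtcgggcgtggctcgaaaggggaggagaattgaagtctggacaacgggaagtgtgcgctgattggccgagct
A half-site is a common string: 7.13% of all 32851 promoters held at least 1. Cdkn1a was the only one of the 7 members with 2 half-sites close enough to form a full response element (a spacer of 0 to 13 bases), an arrangement in 0.0639% of all promoters, or 21. It lay 73 to 42 bases before the first RefSeq start of Cdkn1a, at chr17:29090906-29090937, which is 2.86 kb before the second start. The pattern was matched exactly (RRRCWWGYYY, where R is A or G, W is A or T and Y is C or T). The bases right after the second half-site of Cdkn1a, tgacatgttc, miss it only at their first letter and were not counted. The pair marked here therefore need not be the pair that p53 binds. The core TGATGNAA, bound by dimers of ATF4 with C/EBP factors, was present in 3.45% of all promoters and in none of the 7. These are matches of letters and not measured binding. In the mouse, the known p53 elements of Mdm2 lie in its first intron, outside such a window.

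Trp53 RNA varied little with dose. Its level in the 3 libraries of each group, in the order of their numbers, was 45.1, 39.7 and 47.0 CPM in controls, 41.4, 35.8 and 41.6 CPM at 1 mM, and 45.5, 38.04 and 46.2 CPM at 10 mM. The groups overlap, and the library numbered 2 is the lowest of each. At 10 mM the log2 fold change was -0.023 (SE 0.094, 95% interval -0.23 to 0.19, adjusted p = 0.859, edgeR), and at 1 mM it was -0.15 (SE 0.094, adjusted p = 0.379). Trp53 was lower at 1 mM than in the control of the same number in 3 of 3 pairs, and a fit with the replicate number as a block called that difference (log2 fold change -0.15, adjusted p = 0.00513) and the difference of 10 mM from 1 mM (0.13, adjusted p = 0.0102). Without the block the latter had an adjusted p of 0.337.

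**Figure D1:**
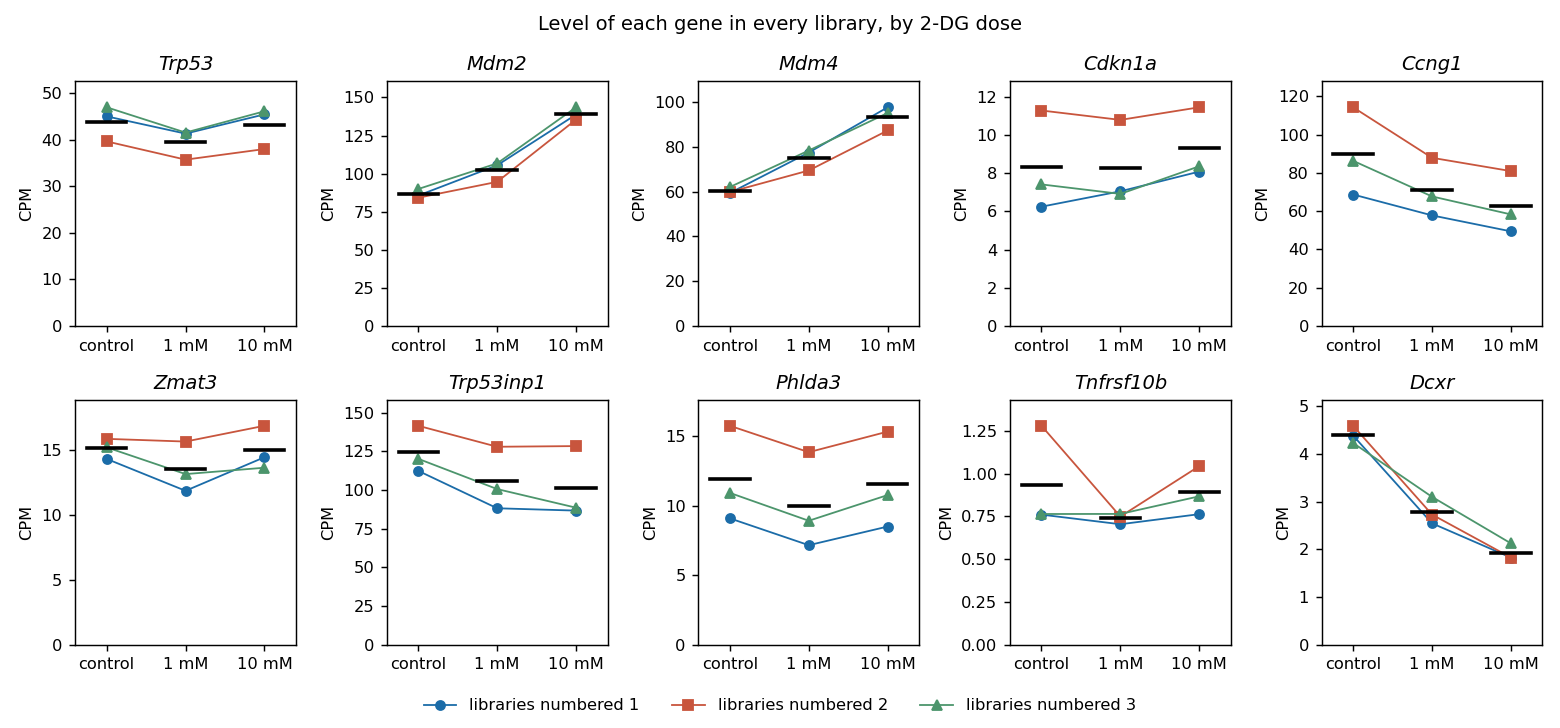
Level of each of the 10 genes in every library, in CPM (y axis, from 0), against the 2-DG dose (x axis). Symbols joined by a line carry the same replicate number and black bars are group means of 3 libraries. Mdm2 and Mdm4 climb and Dcxr descends with dose in all 3 lines, while in Cdkn1a, Ccng1, Zmat3, Trp53inp1 and Phlda3 the libraries numbered 2 lie above the others in every group.

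The inhibitors of p53 rose with dose. Mdm2, the ubiquitin ligase that targets p53, was at 85.6, 84.2 and 89.9 CPM in controls, at 105, 94.6 and 107 CPM at 1 mM, and at 139, 135 and 144 CPM at 10 mM. Separated groups were frequent, without overlap for 27.8% of all genes at 1 mM, 56.8% at 10 mM and 44.6% between the doses. For Mdm2 every library at 10 mM lies above every library at 1 mM, and every library at 1 mM above the controls. The rise was 1.61-fold at 10 mM (log2 fold change 0.69, SE 0.056, adjusted p = 5.26e-06) and 0.24 on the log2 scale at 1 mM (SE 0.056, adjusted p = 0.0213), with 0.45 between the doses (SE 0.055, adjusted p = 3.50e-04). The call at 1 mM was lost in 4 of the fits that left out 1 library. Leaving out the control library numbered 1 gave an adjusted p of 0.0689, and leaving out the control numbered 2 gave 0.0529. Without the 1 mM library numbered 1 it was 0.0911, and without that numbered 3 it was 0.0857, with log2 fold changes of 0.21 to 0.24 in these 4 fits. Under the replicate block it held (adjusted p = 8.13e-06).

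Mdm4, the relative of MDM2 that holds p53 inactive without marking it for degradation, followed the same course. It was at 59.3, 59.8 and 62.01 CPM in controls, at 77.4, 69.4 and 78.3 CPM at 1 mM, and at 97.6, 87.2 and 95.1 CPM at 10 mM. The groups do not overlap at any step. The rise was 1.55-fold at 10 mM (log2 fold change 0.63, SE 0.061, adjusted p = 1.76e-05), 0.31 on the log2 scale at 1 mM (SE 0.061, adjusted p = 0.00930) and 0.31 between the doses (SE 0.061, adjusted p = 0.00337). Over the 9 libraries, which share the doses and the replicate numbers, the log2 CPM of Mdm2 and Mdm4 correlated at a Pearson r of 0.978.

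Dcxr, which encodes dicarbonyl/L-xylulose reductase, an enzyme of sugar and carbonyl metabolism, went the other way. Its level was 4.39, 4.59 and 4.23 CPM in controls, 2.54, 2.73 and 3.10 CPM at 1 mM, and 1.83, 1.83 and 2.12 CPM at 10 mM, from 77 to 201 counts a library. No group overlaps another, and the highest library at 10 mM lies below the lowest at 1 mM. The fall was 2.28-fold at 10 mM (log2 fold change -1.19, SE 0.13, adjusted p = 3.75e-05), -0.66 on the log2 scale at 1 mM (SE 0.13, adjusted p = 0.00837) and -0.53 between the doses (SE 0.13, adjusted p = 0.0119). Of the 10 genes, Dcxr had the largest change in either direction at both doses.

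Cdkn1a, which encodes the cyclin-dependent kinase inhibitor p21 and is the best known arrest target of p53, did not pass the test at either dose. Its level was 6.25, 11.3 and 7.42 CPM in controls, 7.06, 10.8 and 6.92 CPM at 1 mM, and 8.09, 11.5 and 8.37 CPM at 10 mM. The library numbered 2 is the highest of each group, and the groups overlap throughout. The log2 fold change was -0.014 at 1 mM (SE 0.24, 95% interval -0.55 to 0.52, adjusted p = 0.981) and 0.16 at 10 mM (SE 0.24, 95% interval -0.37 to 0.69, adjusted p = 0.608). Against the control of the same number, the 10 mM library was higher in 3 of 3 pairs, and the blocked fit gave 0.17 with an adjusted p of 0.0636. In the annotation Cdkn1a shares 273 exonic bases with AC167363.2, a transcript of the opposite strand that has no row in the count table. The library kit was stranded, but the strand setting of the counting is not stated. Whether reads of the opposite strand entered the Cdkn1a count in that stretch is therefore not known.

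Ccng1 encodes cyclin G1, a p53 target that recruits a phosphatase to MDM2. It stood at 68.7, 114 and 86.3 CPM in controls, at 57.8, 87.9 and 67.7 CPM at 1 mM, and at 49.4, 80.9 and 58.3 CPM at 10 mM. The spread within each group is as large as the step between groups, yet each library is lower than the one of the same number at the dose before. At 10 mM the log2 fold change was -0.51 (SE 0.22, adjusted p = 0.0716), and with the replicate block it was called (-0.51, adjusted p = 6.87e-11). The call was also made with no filter on low counts (adjusted p = 0.0392), with library totals alone (0.0447), and without control replicate 1 (0.0297), 1 mM replicate 2 (0.0442), 10 mM replicate 2 (0.0171) or all 3 libraries numbered 2 (0.00897). Without control replicate 2 the value was -0.32 (adjusted p = 0.238) and without 10 mM replicate 1 it was -0.37 (0.230), while without 10 mM replicate 2 it was -0.75. At 1 mM it was -0.34 (SE 0.22, adjusted p = 0.393; blocked -0.33, adjusted p = 3.25e-07), and between the doses -0.18 (adjusted p = 0.575; blocked -0.18, adjusted p = 1.95e-04).

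Trp53inp1, a p53-induced nuclear protein with roles in autophagy and death, resembled Ccng1. Its values were 112, 142 and 120.2 CPM in controls, 88.2, 128 and 101 CPM at 1 mM, and 86.6, 128 and 88.5 CPM at 10 mM. The 2 treated groups lie almost on each other, each with its library numbered 2 inside the range of the controls. The log2 fold change was -0.24 at 1 mM (SE 0.17, adjusted p = 0.434) and -0.30 at 10 mM (SE 0.17, adjusted p = 0.158). The blocked fit called both, at -0.25 (adjusted p = 1.16e-04) and -0.32 (adjusted p = 1.70e-06). So did the fit without the libraries numbered 2, at -0.30 (adjusted p = 0.0249) and -0.43 (adjusted p = 0.00142), and at 10 mM the fit without 10 mM replicate 2 (-0.53, adjusted p = 0.0139).

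Phlda3, a p53 target whose protein competes with AKT for membrane lipids, was at 9.09, 15.8 and 10.9 CPM in controls, 7.16, 13.9 and 8.92 CPM at 1 mM, and 8.50, 15.3 and 10.8 CPM at 10 mM. It dipped at 1 mM in all 3 numbered series and stood at 10 mM close to the controls. Unblocked, no comparison passed: the log2 fold change was -0.26 at 1 mM (SE 0.28, adjusted p = 0.646), -0.049 at 10 mM (SE 0.28, adjusted p = 0.899) and 0.21 between the doses (adjusted p = 0.607). With the block the dip was called (-0.27, adjusted p = 0.00381), and so was the return (0.22, adjusted p = 0.00957).

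The other two targets passed no test, blocked or not. Zmat3, an RNA-binding zinc finger protein that acts in p53-dependent splicing and mRNA control, was at 14.3, 15.8 and 15.2 CPM in controls, 11.8, 15.6 and 13.1 CPM at 1 mM, and 14.4, 16.8 and 13.6 CPM at 10 mM. Its log2 fold change was -0.16 at 1 mM (SE 0.12, adjusted p = 0.462) and -0.015 at 10 mM (SE 0.12, adjusted p = 0.929). Tnfrsf10b, the mouse death receptor for TRAIL, was hardly expressed, at 0.703 to 1.28 CPM over the 9 libraries from 31 to 56 counts. Its log2 fold change at 10 mM was -0.070 (SE 0.24, 95% interval -0.61 to 0.47), so a fall or a rise within that interval was not excluded.

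**Figure D2:**
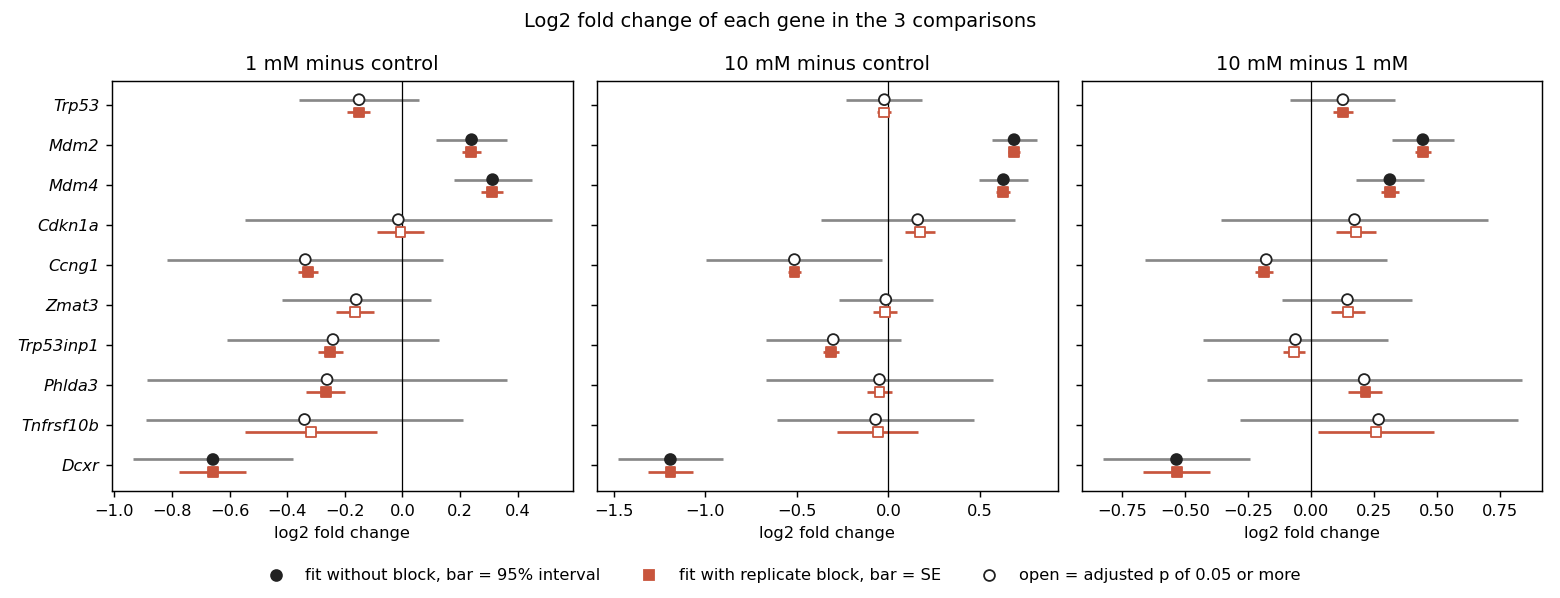
Log2 fold change of each gene (x axis) in the 3 comparisons, for the fit without a block (black circles, bars are 95% intervals) and with the replicate number as a block (red squares, bars are SE). Filled symbols have an adjusted p under 0.05. Mdm2, Mdm4 and Dcxr are filled in all panels and in both fits, and Ccng1 is filled in all 3 only with the block.

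Counted together, 2 of the 10 genes (Mdm2 and Mdm4) were higher and 1 (Dcxr) was lower in each comparison. Of all genes tested, 5.69% were higher and 4.34% lower at 1 mM, 25.7% and 24.0% at 10 mM, and 17.5% and 13.7% at 10 mM against 1 mM, so at 10 mM the members' share of rises and falls was not above that of genes at large. With library totals in place of trimmed means, the calls over all genes at 10 mM moved from 3899 higher and 3639 lower to 2850 and 4776, and at 10 mM against 1 mM from 2655 and 2076 to 1564 and 2961, but no member changed direction. With the replicate block 2 members were higher and 5 lower at 1 mM, 2 and 3 at 10 mM, and 4 and 2 between the doses. The blocked background was 18.1% higher and 18.3% lower at 1 mM, 34.4% and 33.8% at 10 mM, and 30.7% and 25.6% between the doses. The median log2 fold change over the 10 genes was -0.20 at 1 mM and -0.036 at 10 mM, against 0.0034 and -0.011 over all genes tested. Groups did not overlap for 3 of the 10 genes in each comparison. Of all genes tested the same held for 27.8% at 1 mM, 56.8% at 10 mM and 44.6% between the doses. The comparisons with control share the 3 control libraries.

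Levels were compared between genes per length of exons (CPM per kb of all annotated exons). These lengths join the exons of all transcripts of a gene, from 1.144 kb for Dcxr to 14.798 kb for Mdm4. The order therefore depends on the annotation, and the annotation used for counting is not known. In controls Ccng1 was the highest at 25.6 ± 6.54 (SD, n = 3), followed by Trp53inp1 at 19.3 ± 2.33 and Mdm2 at 17.0 ± 0.587, and each of these overlaps the next in its range. Trp53 at 10.9 ± 0.939 and Phlda3 at 7.65 ± 2.21 overlapped each other and stood apart from Mdm2 above and Mdm4 below. Mdm4 at 4.08 ± 0.0966 and Dcxr at 3.85 ± 0.158 also overlapped. Cdkn1a at 2.34 ± 0.742, Zmat3 at 1.32 ± 0.0678 and Tnfrsf10b at 0.171 ± 0.0549 CPM per kb closed the order, each below the range of the one before. At 10 mM the order had changed at 2 places: Mdm2 was first at 27.4 ± 0.798, above the range of Ccng1 at 17.9 ± 4.62 and of Trp53inp1 at 15.6 ± 3.64, and Cdkn1a at 2.62 ± 0.526 stood above Dcxr at 1.68 ± 0.15 CPM per kb without overlap.

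The replicate number separated several of these genes more than the dose did. Cdkn1a, Ccng1, Zmat3, Trp53inp1 and Phlda3 were highest in the library numbered 2 in all 3 groups, which makes 5 of the 10 genes, against 18.3% of all genes tested. For Cdkn1a that library was 1.65 times the mean of the other two in controls, 1.54 times at 1 mM and 1.39 times at 10 mM. For Phlda3 the ratios were 1.57, 1.72 and 1.59, and for Ccng1 1.47, 1.40 and 1.502. Trp53 and Mdm2 showed the opposite, being lowest in the library numbered 2 in all 3 groups, as were 20.7% of all genes. Trp53 there was 0.862, 0.862 and 0.830 times the mean of the others. In the same libraries the microglial sum was the highest of its group (93.1 against 62.8 and 62.2 CPM in controls, 37.1 against 29.2 and 30.4 CPM at 1 mM, 45.9 against 35.9 and 31.4 CPM at 10 mM) and the radial glia sum the lowest (1500, 1287 and 1201 CPM). The astrocyte sum (127, 117 and 108 CPM) and that of the oligodendrocyte lineage (60.3, 50.7 and 41.6 CPM) were the lowest there too. The part of these cells in the members' levels was not tested.

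**Figure D3:**
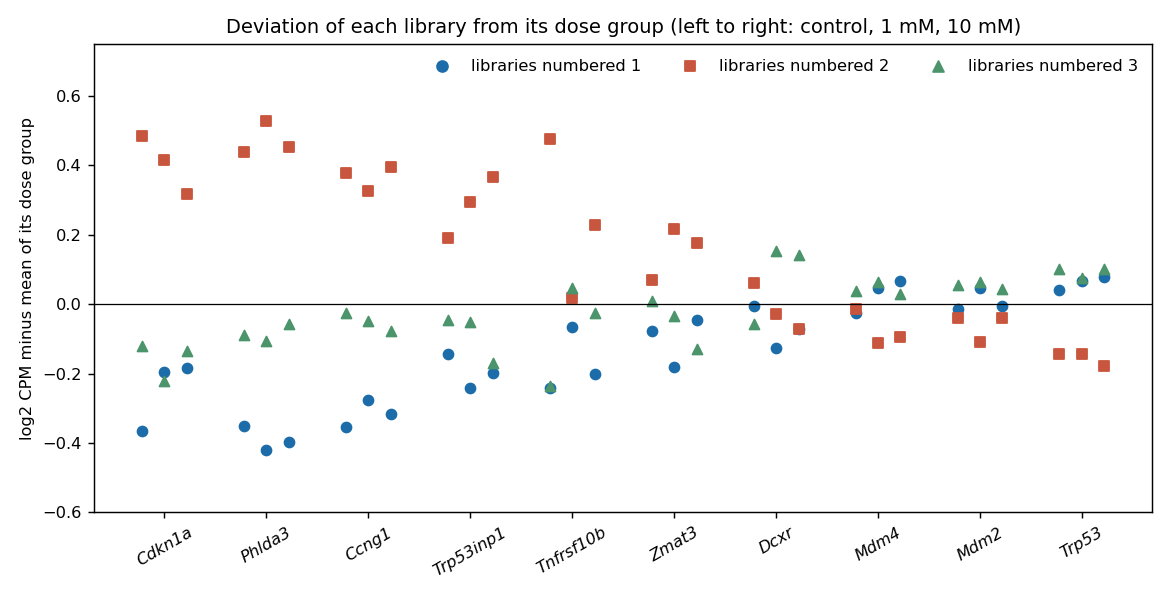
Deviation of each library from the mean log2 CPM of its dose group (y axis) for the 10 genes (x axis), with the 3 groups side by side within a gene and symbols for the replicate number. The libraries numbered 2 (red squares) lie above 0 in all groups for Cdkn1a, Phlda3, Ccng1, Trp53inp1, Tnfrsf10b and Zmat3 and below 0 for Trp53, Mdm2 and Mdm4.

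Genes with the most similar course were named for 3 members by Pearson correlation of log2 CPM over the 9 libraries, among the 11741 genes whose average log2 CPM reached 1. Those nearest to Trp53 were Nup133 (r = 0.989), a nuclear pore subunit, Psmd12 (0.982), a proteasome subunit, and Pcdh18 (0.981), a protocadherin. Nup133, for example, was at 86.0 ± 4.76 CPM in controls, 79.2 ± 4.01 at 1 mM and 85.1 ± 5.70 at the higher dose (SD, n = 3), the same shallow dip. Those nearest to Mdm2 were Snhg1 (0.998), a small nucleolar RNA host transcript, Rabl6 (0.997), a Rab-like GTPase, and Spata5 (0.997), an ATPase of ribosome maturation. Snhg1 went from 38.9 ± 2.88 CPM in controls to 69.6 ± 12.01 at 1 mM and 198 ± 19.5 at 10 mM, a far larger step than that of Mdm2. For Cdkn1a they were Zfr2 (0.978), Igsf9b (0.976) and the neuregulin receptor Erbb4 (0.976). Erbb4 stood at 89.6 ± 9.59, 91.2 ± 6.75 and 93.1 ± 6.17 CPM, and in it, as in Cdkn1a, the SD within each group was larger than the differences between the group means. The libraries share doses and replicate numbers, and each set was picked as the best of many.

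Beyond the 10 genes, 60 of 61 other listed p53 targets were in the table and tested. At 1 mM, 6 were higher and 3 lower (15 and 20 with the block), and at 10 mM 15 were higher, 17 lower and 28 did not pass (19 and 23 with the block). Between the doses 9 were higher and 11 lower (21 and 16 with the block). Over all genes 25.7% were higher and 24.0% lower at 10 mM (34.4% and 33.8% with the block), so the counts at 10 mM lie near the background. At 1 mM the shares over all genes were 5.69% and 4.34% (18.1% and 18.3% with the block). Between the doses they were 17.5% and 13.7% (30.7% and 25.6% with the block). Higher and lower together, 15% of the 60 targets were called at 1 mM, against 10% of all genes. With the block these 2 shares were 58.3% and 36.3%. The median log2 fold change of the 60 targets was -0.068 at 1 mM and -0.070 at 10 mM, beside 0.0034 and -0.011 over all genes. Single targets ranged from -1.16 to 4.38 at 10 mM. Without the libraries numbered 2 the count at 1 mM was 14 in place of 9.

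Several targets with large rises, among them Sesn2, Ddit4, Gdf15 and Bbc3, are genes that the transcription factors ATF4 and CHOP are also known to induce. Among 13 arrest and growth genes 5 rose and 4 fell at 10 mM (25.7% and 24.0% over all genes). Sesn2, a leucine sensor that restrains mTORC1, went from 23.6 ± 2.86 CPM in controls to 281 ± 23.2 (SD, n = 3; log2 fold change 3.57, adjusted p = 5.45e-09), and the growth arrest gene Gadd45a from 4.54 to 18.7 CPM (2.04, adjusted p = 5.17e-07). The antiproliferative gene Btg2 fell from 51.3 to 30.3 CPM (-0.76, adjusted p = 1.68e-05) and the microtubule gene Psrc1 from 27.6 to 17.1 CPM (-0.69, adjusted p = 1.56e-04). Beside them, Atf4 rose from 275 to 655 CPM at 1 mM and 933 CPM at 10 mM (log2 fold changes 1.25 and 1.76, adjusted p = 4.81e-04 and 8.18e-06), and Ddit3, which encodes CHOP, from 13.2 to 100.03 and 150 CPM (2.92 and 3.51, adjusted p = 9.35e-08 and 9.85e-09). The part of these factors in the rises was not tested.

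Of 14 apoptosis genes 2 rose and 5 fell at 10 mM, and 0 rose and 2 fell at 1 mM (2 and 7 with the block). Over all genes 25.7% rose and 24.0% fell at 10 mM, and 5.69% and 4.34% at 1 mM (18.1% and 18.3% with the block). The edgeR count of 0 was the same at an unadjusted p under 0.05 and in DESeq2. Bbc3, which encodes the BH3-only protein PUMA, reached 50.03 CPM against 24.8 CPM in controls (log2 fold change 1.01, adjusted p = 6.98e-04). Pidd1, a p53-induced platform for caspase-2, fell from 7.64 to 3.44 CPM (-1.15, adjusted p = 7.33e-05). Siva1, a death adaptor, fell to 15.8 from 22.5 CPM (-0.51, adjusted p = 0.00127) and Bid, a BH3-only activator, to 10.3 from 14.3 CPM (-0.48, adjusted p = 0.00218).

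Of the 6 tested genes listed under feedback beyond Mdm2, Mdm4 and Ccng1, 3 rose and 2 fell at 10 mM. At 1 mM 2 rose and 0 fell by edgeR (3 and 2 with the block, 3 and 1 at an unadjusted p under 0.05, 2 and 0 by DESeq2). Over all genes 25.7% rose and 24.0% fell at 10 mM, and 5.69% and 4.34% at 1 mM (18.1% and 18.3% with the block). Rchy1 and Rfwd2, which encode the ubiquitin ligases PIRH2 and COP1 of p53, went from 39.8 to 71.5 CPM (log2 fold change 0.85, adjusted p = 4.13e-06) and from 50.3 to 70.9 CPM (0.50, adjusted p = 5.22e-04). Ddit4 rose from 44.8 to 188 CPM (2.07, adjusted p = 2.53e-08), and the p53 relative Trp73 fell from 7.84 to 5.69 CPM (-0.46, adjusted p = 0.00303). Ddit4 is a p53 target that inhibits mTORC1, and it is counted among the rises of this list at both doses.

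Of 8 DNA repair and nucleotide supply genes, 2 were higher and 3 lower at 10 mM. At 1 mM 0 were called by edgeR (2 and 1 with the block, 2 and 0 at an unadjusted p under 0.05, 1 and 0 by DESeq2). Over all genes 25.7% rose and 24.0% fell at 10 mM, and 5.69% and 4.34% at 1 mM (18.1% and 18.3% with the block). The translesion polymerase Polh rose from 22.3 to 41.8 CPM (log2 fold change 0.90, adjusted p = 7.32e-06) and its relative Polk from 8.03 to 11.7 CPM (0.54, adjusted p = 0.0340). The damage sensor Xpc fell from 43.9 to 33.6 CPM (-0.39, adjusted p = 1.68e-04) and the ribonucleotide reductase subunit Rrm2b from 14.3 to 8.68 CPM (-0.72, adjusted p = 3.26e-04). Among 19 metabolic and other targets 3 passed as higher and 3 as lower at 10 mM, where 25.7% and 24.0% of all genes did. With the block 6 and 6 of the 19 passed, against 34.4% and 33.8% of all genes. The secreted stress factor Gdf15 had the largest rise, from 0.255 to 5.34 CPM, though its control level rests on only 9 to 12 counts a library. Fdxr, the ferredoxin reductase of mitochondria, rose from 15.6 to 26.1 CPM (0.75, adjusted p = 1.42e-04), while the lipase Abhd4 fell from 26.3 to 14.3 CPM (-0.88, adjusted p = 3.65e-04) and the adenylate kinase Ak1 from 68.3 to 50.3 CPM (-0.44, adjusted p = 0.00168).

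Of 19 tested genes that act on p53, 7 rose and 5 fell at 10 mM (25.7% and 24.0% over all genes), with a median log2 fold change of 0.10, and 0 were called at 1 mM by edgeR (4 and 2 with the block, 2 and 1 at an unadjusted p under 0.05, 0 by DESeq2). At 1 mM with the block 18.1% of all genes rose and 18.3% fell. Among the listed genes that fell at 10 mM were kinase genes of the DNA damage response. Chek2 went from 10.5 to 5.68 CPM (log2 fold change -0.89, adjusted p = 3.23e-04) and Atm from 99.9 to 80.1 CPM (-0.32, adjusted p = 1.57e-04). The deacetylase Sirt1, which acts on p53 among other proteins, rose from 43.7 to 57.9 CPM (0.41, adjusted p = 9.63e-05), and Daxx, a histone chaperone that binds MDM2, from 62.7 to 78.0 CPM (0.32, adjusted p = 4.27e-04).

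**Figure D4:**
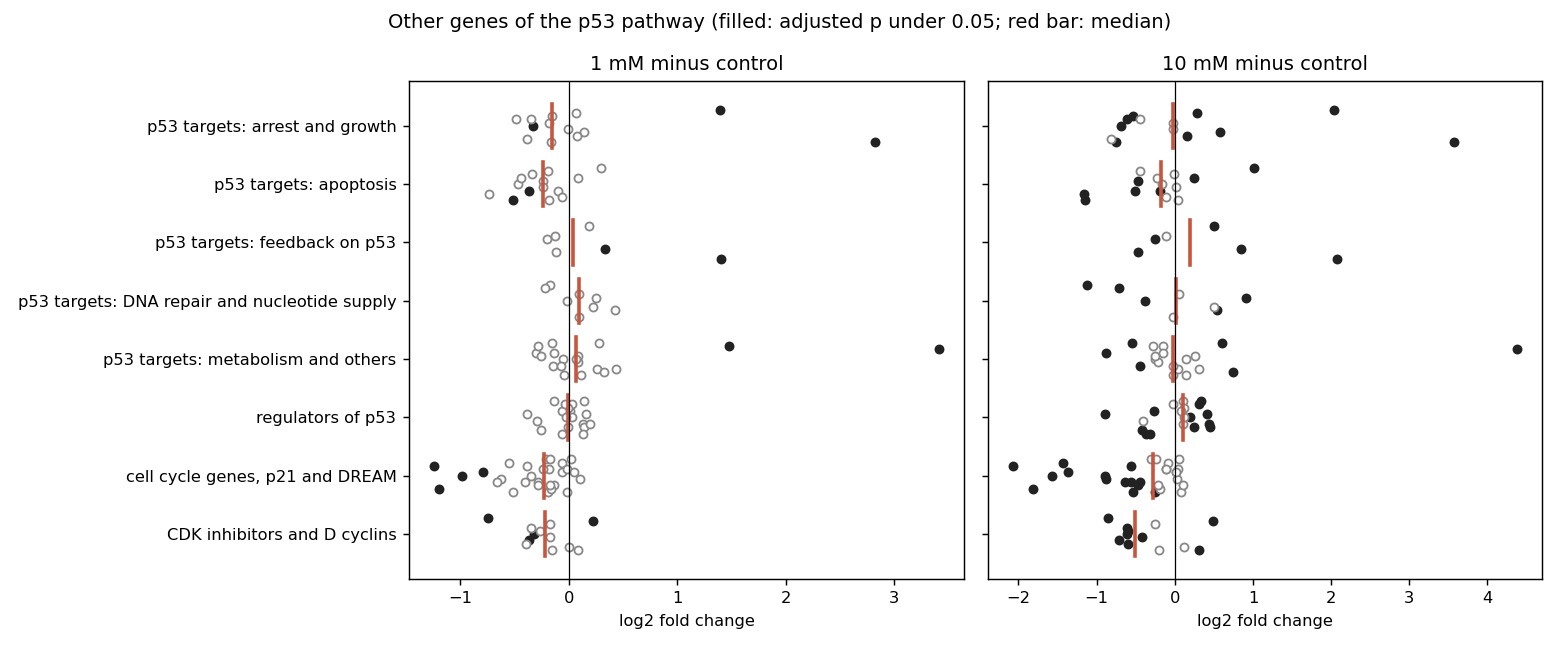
Log2 fold change (x axis) of each tested gene in 8 lists of the p53 pathway (rows) at 1 mM and 10 mM against control. Filled circles have an adjusted p under 0.05 without the block, and red bars are list medians. In the arrest, apoptosis, feedback, repair, metabolism and regulator lists filled genes lie on both sides of 0 at 10 mM, and in the cell cycle list all 14 lie below it.

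Of 28 cell cycle genes that p53 is known to repress through p21 and the DREAM complex, 14 were lower at 10 mM, 0 were higher and the remaining 14 missed the threshold, while at 1 mM 0 were higher and 4 lower (0 and 20 with the block at either dose). Of all genes 24.0% fell at 10 mM and 4.34% at 1 mM (33.8% and 18.3% with the block). The medians of the list were -0.28 at 10 mM and -0.23 at 1 mM. No rise was called by edgeR at an unadjusted p under 0.05 or by DESeq2 either, and the falls at 1 mM then numbered 11 and 7. The cyclins E led: Ccne2 went from 32.6 CPM in controls to 13.8 at 1 mM and 7.75 at 10 mM (log2 fold changes -1.24 and -2.07, adjusted p = 9.98e-04 and 6.36e-06), and Ccne1 from 15.4 to 6.74 and 4.36 CPM (-1.19 and -1.82, adjusted p = 0.00131 and 1.49e-05). The S phase regulator E2f1 fell from 16.7 to 6.17 CPM at 10 mM (-1.43, adjusted p = 4.73e-05) and the ribonucleotide reductase subunit Rrm2 from 129 to 50.2 CPM (-1.36, adjusted p = 6.86e-05). The summed level of radial glia and progenitor markers, cells that still divide, was lower in the same groups, as given above. That fall was uneven across the list. Of the 10 markers 4 were lower at 10 mM and 6 did not pass (1 higher and 8 lower with the block). Their median log2 fold change was -0.17. Fabp7 went from 336.7 CPM in controls to 107.4 at 10 mM and Nes from 231.5 to 139.4. Slc1a3 stood at 153.1 and 163.5 CPM in these groups. The part of such cells in the cell cycle falls was not tested.

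Among 12 inhibitors and partners of the G1 kinases, 2 rose and 7 fell at 10 mM, with 1 and 3 at 1 mM (1 and 8 with the block). Over all genes 25.7% rose and 24.0% fell at 10 mM, and 5.69% and 4.34% at 1 mM (18.1% and 18.3% with the block). Cdkn1b, which encodes the p21 relative p27, rose from 164 to 191 CPM at 1 mM and 230 CPM at 10 mM (log2 fold changes 0.22 and 0.49, adjusted p = 0.0183 and 2.28e-05). Cdkn1c, which encodes p57, fell from 42.7 to 28.0 CPM at 10 mM (-0.61, adjusted p = 4.33e-05). Ccnd3, a D cyclin, fell from 29.97 to 18.2 CPM (-0.72, adjusted p = 5.77e-05) and its kinase Cdk4 from 513 to 340 CPM (-0.59, adjusted p = 4.70e-04).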

How the data were processed

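The values analysed are the authors' deposited raw counts, whole numbers for each gene and library. Per the labels' protocols, cDNA was amplified, made into libraries with a stranded kit after removal of ribosomal RNA, sequenced in paired ends and aligned to mm10 with STAR 2.4.0. Per the submitters' processing notes, bcl2fastq 2.17, STAR and HTSeq were used. For the counting, neither annotation nor strand setting is given in the sources used here, which leaves genes that overlap another on either strand uncertain.

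Columns were assigned to groups by library title. Of 24061 rows, 1 names no gene (at most 0.000216% of a library's counts) and was left out. Genes were filtered with filterByExpr of edgeR 4.0.16 (minimum count 10, minimum total 15), scaled with TMM factors, and fitted over all 9 libraries and 3 groups without a block. edgeR's quasi-likelihood F test was used, two-sided, with Benjamini-Hochberg adjustment over 15153 genes and a threshold of 0.05. All adjusted p-values come from it unless a sentence names another setting. SE is the size of the log2 fold change divided by the square root of F, and intervals are 95%. The intervals include the spread among libraries. Reads carried no molecular identifiers, so they do not count molecules. No pair of libraries of a group agreed within sampling noise. Software was R 4.3.3, limma 3.58.1 and DESeq2 1.42.0.

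The labels give groups the same replicate numbers. Deviations from the group means correlated at 0.351 to 0.518 between same-numbered libraries (9 pairs) and at -0.344 to -0.112 between others. Deviations from a group mean cancel out within the group, so the negative values partly follow from the positive ones. The blocked fit took same-numbered libraries as paired. The main fit did not, so its calls ignore any such pairing. The numbers stand in the library titles, where same-numbered libraries of the groups follow one another. The labels do not state that such libraries are paired, or what a number marks.

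Coordinates, exon lengths and overlaps come from GENCODE on GRCm38. Cop1 was counted under its older symbol Rfwd2 and Tigar under 9630033F20Rik, and Trp53rkb was not in the table. The members and lists were chosen with earlier results of these data known. Named beside the members were, of each list, at most 4 genes with the smallest p at 10 mM among those past the threshold, Atf4 and Ddit3, and the 3 genes most like Trp53, Mdm2 and Cdkn1a among those that are not predicted genes. Alternatives were no low-count filter, DESeq2 size factors, library totals, the DESeq2 test, only the 6 libraries compared, the replicate block and each library left out. The fit without the 3 libraries numbered 2 was chosen after seeing the data.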

Additional observations from a re-analysis of the deposited data

How the results depend on the processing

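The 9 called log2 fold changes of Mdm2, Mdm4 and Dcxr kept their direction in all 144 refits and their call in 140, the exceptions being the 4 single-library omissions for Mdm2 at 1 mM. Of 336 refits of the 21 uncalled values, 297 gave the same call and direction, 18 passed the threshold and 21 changed sign. With the replicate block, members called numbered 7 at 1 mM, 5 at 10 mM and 6 between the doses (3 each without). Other p53 targets called then numbered 35 at 1 mM and 37 between the doses (9 and 20 without), and all genes called 5506 and 8528 (1520 and 4731 without). Without the libraries numbered 2, 5 members were called at 10 mM and 14 other targets at 1 mM, and the log2 fold changes of Cdkn1a at 1 mM and of Tnfrsf10b at 10 mM turned to 0.032 and 0.081. Leaving out 1 library at a time gave 810 to 1568 genes and 5 to 9 other targets called at 1 mM, and 3 to 5 members at 10 mM. The same omissions turned the sign of uncalled log2 fold changes: Cdkn1a ranged from -0.25 to 0.27 at 1 mM, from -0.034 to 0.42 at 10 mM and from -0.024 to 0.39 between the doses. At 10 mM, Trp53 ranged from -0.11 to 0.043, Zmat3 from -0.13 to 0.049, Phlda3 from -0.33 to 0.18 and Tnfrsf10b from -0.22 to 0.21. Between the doses, Trp53inp1 ranged from -0.29 to 0.081 and Phlda3 from -0.067 to 0.50. The causes were not tested. Tnfrsf10b had the fewest counts of the members, 31 to 56 a library.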
